A study of Triticum turgidum subsp. durum with 32 samples.

Results

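The comparison described here is that of the *phyC*-null mutant with its wild-type sister line in experiment 2, with 4 libraries of each genotype, 8 of the 32 libraries of the series. A locus counted as a member when 2 or more of these 8 libraries held 3 or more of its reads, which was so for 75109 of the 150754 transcribed loci in the deposited table. Each library, a biological replicate, was made from the third leaf of 4-week-old plants of the tetraploid wheat variety Kronos grown in 16 h of light and 8 h of dark and harvested in the morning. The *phyC*-null line carries loss-of-function mutations from a mutagenized (TILLING) population in the A- and B-genome copies of *PHYC*, and the wild type is a sister line without them, and other mutations by which the lines may differ were not examined. Loci on chromosome 1B and on scaffolds assigned to it are counted apart. Experiment 1 grew the same lines in another chamber with a different ballast system, and the *phyB*-null lines were grown separately with their own wild-type sister line.

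Phytochromes are photoreceptors that exist in a red-absorbing and a far-red-absorbing form and that alter gene expression according to light. In wheat, *PHYC* and *PHYB* promote flowering in long days through *PPD1*, a pseudo-response regulator of the photoperiod pathway, and *FT1*, the wheat counterpart of florigen, which is made in leaves and moves to the shoot apex. The MADS-box gene *VRN1* and its relative *FUL2* act with *FT1*, *CO* genes and *GI* link the circadian clock to photoperiod, and the microRNA miR5200 is known in Brachypodium to target *FT* transcripts. A locus is given below by the name of its transcript, or by the gene name that the study gives that transcript, and homoeologues are its A- and B-genome copies.

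Between 18898968 and 25666244 reads were counted per wild-type library and between 15961572 and 27305349 per *phyC*-null library. Libraries of 1 genotype differed by at least 5.17 times the sampling variance, so none was a repeat of another, and the correlation of log2 normalized counts was 0.958 to 0.977 within a genotype and 0.925 to 0.960 between genotypes. The *PHYC* locus itself was not analysed here, since the sources used here do not pair a locus with that name, and the lines were not checked by it. Among 14 loci whose descriptions matched photosystem, chlorophyll or Rubisco as search terms, the most abundant, Traes_4AL_B6C20BAB9, a Rubisco large subunit-binding protein, had 3448 ± 773 in the wild type and 4236 ± 599.7 in *phyC*-null normalized counts (SD, n = 4). Normalized counts are counts divided by the library's size factor, and positions are those of the draft chromosome arm assembly used by the authors.

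A total of 781 loci differed between *phyC*-null and the wild type at an adjusted P of at most 0.01, which is 1.04% of those tested, and are said to be called below. Of these, 425 rose in *phyC*-null (0.566% of the loci tested) and 356 fell (0.474%). Outside chromosome 1B, 677 of 70287 loci (0.963%) were called, 369 higher and 308 lower in the mutant. The median size of the rises was 5.30-fold (log2 2.41) and that of the falls 3.24-fold (log2 -1.70), while the median log2 fold change over all loci tested was 0.01. In whole leaves, fewer cells of a type and less RNA per cell cannot be told apart. The 4 libraries of each genotype did not overlap at 777 of the 781 called loci, beside 6957 of all 75109 loci (9.26%). The number called was 483 without wild-type replicate 2, 520 without wild-type replicate 3 and 506 without *phyC*-null replicate 1, each a fit of 7 libraries; outside 1B the counts were 413, 448 and 431. A DESeq2 Wald test called 1467 loci and edgeR's exact test 1776.

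The sizes of the changes differed with the level of the locus. Among loci with a higher-genotype mean above 1000 normalized counts, 64 of 3160 (2.03%) were called, with a median absolute log2 change of 1.12. Between 10 and 50 normalized counts, 229 of 20068 (1.14%) were called, with a median of 3.22, and 142 of these rose. At 10 or below, 17 of 24492 loci were called. In 163 of the called loci (20.9%) the lower genotype had at most 5% of the mean of the other, 88 of them near silence in the wild type and 75 in *phyC*-null. Loci with an Ensembl-style wheat gene name made up 57.7% of the loci tested, 50.2% of those called and 25.2% of these near-silent loci, and the rest are named after assembled transcript contigs.

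**Figure D1:**
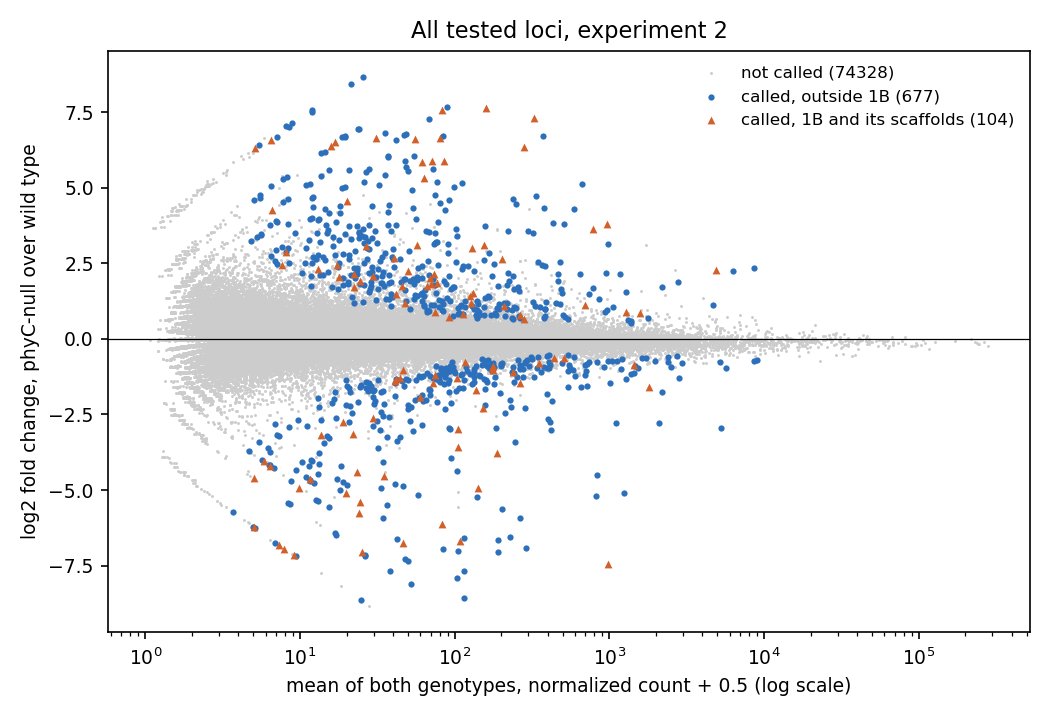
Log2 fold change of *phyC*-null over wild type against the mean normalized count of both genotypes (log scale) for the 75109 loci tested in experiment 2. The 677 called loci outside chromosome 1B (circles) and the 104 on it (triangles) lie on both sides of 0, and the widest changes are at loci of low and middle abundance.

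Of 18 listed flowering loci, 12 fell in *phyC*-null, 4 rose and 2 did not pass the test, where 1.04% of all loci were called. For 14 of the loci, the study chose the transcript because both mutants shared its change in these same libraries. It chose *FT-B3*, *PRR95-A* and *TaAGL41-B* because they changed in *phyC*-null, so neither the calls nor their directions are independent evidence. The transcript td-k51_contig_84804 is counted at both loci where it is placed, and its 7A locus is among the 2 that did not pass. *PPD-B1* (Traes_2BS_8BED816B1, 2B:17854421-17855929) had 2573, 2341, 2131 and 2617 in wild-type replicates 1 to 4 and 65.1, 67.9, 69.7 and 77.4 in *phyC*-null replicates 1 to 4. It stood far below the wild type in each mutant library, with little spread in either genotype (log2 fold change -5.11, SE 0.12, adjusted P = 1.48e-09). Its A-genome homoeologue *PPD-A1*, of which Kronos carries a promoter deletion allele that is expressed whatever the photoperiod, had 1101, 1219, 1015 and 890.4 in wild-type replicates 1 to 4 and 695, 921, 667 and 988 in *phyC*-null replicates 1 to 4. The genotypes overlapped, and the difference did not pass the test (log2 fold change -0.37, SE 0.15, adjusted P = 0.245).

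*FT-A1* (7A:19125373-19127183) was nearly silent in *phyC*-null, with 129, 123, 179.7 and 402 in wild-type replicates 1 to 4 and 0.958, 3.18, 1.38 and 0 in *phyC*-null replicates 1 to 4 (log2 fold change -7.03, SE 0.60, adjusted P = 3.26e-05). Wild-type replicate 4 was the highest, and no mutant library came near the lowest wild-type one. *FT-B1*, on an unplaced 7BS scaffold, had 193, 231, 142 and 342 in wild-type replicates 1 to 4 and 0.958, 4.24, 1.38 and 2.98 in *phyC*-null replicates 1 to 4 and fell likewise (log2 fold change -6.60, SE 0.40, adjusted P = 1.66e-06). Both homoeologues lost nearly all transcript, and *FT-B3*, a relative of *FT1* on an unplaced scaffold of 1BL, fell from 75.04, 58.5, 33.5 and 33.9 in the wild-type libraries to 10.54, 4.24, 6.91 and 11.9 in the mutant ones (log2 fold change -2.62, SE 0.36, adjusted P = 0.00171).

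Among the MADS-box genes of meristem identity, *VRN-A1* had 1909, 1300.3, 1744 and 2757 in wild-type replicates 1 to 4 and 221, 284, 311 and 295 in *phyC*-null replicates 1 to 4, a drop that left the gene well expressed (log2 fold change -2.79, SE 0.21, adjusted P = 1.04e-05). *VRN-B1* (5B:223505210-223509906) had 732, 504, 662 and 1102 in wild-type replicates 1 to 4 and 69.0, 92.3, 102 and 106 in *phyC*-null replicates 1 to 4 (log2 fold change -3.02, SE 0.23, adjusted P = 1.28e-05). The homoeologues fell by like amounts, and a locus described as MADS-box factor 14, Traes_5BL_5D2D22E67 on a 5BL scaffold, had a log2 fold change of -3.603 (adjusted P = 8.88e-04), the 1 called of 6 loci described as MADS-box factors (median 0.48). *FUL-A2* (2A:50358178-50365369) had 117, 38.2, 89.4 and 201 in wild-type replicates 1 to 4 and 3.83, 2.12, 1.38 and 5.95 in *phyC*-null replicates 1 to 4. Its wild-type libraries were widely spread, yet none overlapped the mutant (log2 fold change -5.16, SE 0.58, adjusted P = 3.81e-04).

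*GI-B* and *PRR95-A*, of the circadian clock and its output, also fell, while the clock genes *CCA-B1* (log2 fold change -0.05, adjusted P = 0.919) and *LHY-B* (0.72, adjusted P = 0.106) did not pass the test. The study listed *CCA-B1* and *LHY-B* for a change in *phyB*-null alone, and *GI-B* and *PRR95-A* for one in *phyC*-null. That choice in part sets this contrast, and nothing is read from it. *GI-B*, the B copy of *GIGANTEA* (3B:118248133-118256633), had 584, 635, 580.2 and 978 in wild-type replicates 1 to 4 and 89.1, 109, 167 and 67.0 in *phyC*-null replicates 1 to 4 (log2 fold change -2.65, SE 0.26, adjusted P = 9.47e-05). The groups did not overlap, and wild-type replicate 4 lay apart from the other 3. *PRR95-A*, a clock pseudo-response regulator, had 1462, 917, 1837 and 1743 in wild-type replicates 1 to 4 and 760.5, 568, 475 and 336 in *phyC*-null replicates 1 to 4 (log2 fold change -1.47, SE 0.25, adjusted P = 0.00697). This call was lost without wild-type replicates 1, 3 or 4 or *phyC*-null replicates 2, 3 or 4, with log2 fold changes of -1.69 to -1.31 over the 8 fits that left 1 library out. A locus described as PRR37-like, Traes_1AL_2EE300C85 (1A:182994658-182996329), had 367, 194, 186 and 201 in wild-type replicates 1 to 4 and 80.5, 67.9, 81.5 and 69.9 in *phyC*-null replicates 1 to 4 (log2 fold change -1.65, SE 0.22, adjusted P = 0.00116), and one described as cyclic dof factor 3-like, a class that represses *CO* in Arabidopsis, fell by 1.27 (Traes_4BL_097D9E8A8, adjusted P = 7.01e-04). Both were named after their values were seen, and the second was the 1 called of 3 loci described as cyclic dof factors (median log2 fold change -0.40).

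*CO* family members moved in opposite directions. *CO-A1* (7A:52996030-52998690), a *CONSTANS*-like gene, rose from 7.004, 14.4, 20.5 and 16.96 in the wild-type libraries to 136, 156, 100.1 and 146 in the mutant ones (log2 fold change 3.17, SE 0.25, adjusted P = 1.94e-05). *CO-B9*, which lies on chromosome 1B (1B:165326828-165328560), had 502, 332, 328.7 and 383 in wild-type replicates 1 to 4 and 135, 128, 133 and 162 in *phyC*-null replicates 1 to 4 and fell (log2 fold change -1.47, SE 0.15, adjusted P = 1.61e-04). No library of either gene overlapped the other genotype.

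The other genes that rose were MADS-box genes of the FLC clade, whose Arabidopsis member delays flowering. *TaAGL33-A* had 75.04, 119.6, 113 and 35.1 in wild-type replicates 1 to 4 and 314, 337, 184 and 339 in *phyC*-null replicates 1 to 4 (log2 fold change 1.75, SE 0.30, adjusted P = 0.00832), and *TaAGL33-B* had 7.004, 17.8, 13.97 and 2.42 in wild-type replicates 1 to 4 and 78.5, 97.6, 48.3 and 47.6 in *phyC*-null replicates 1 to 4 (log2 fold change 2.64, SE 0.40, adjusted P = 0.00343). Wild-type replicate 4, highest for most of the genes that fell, was the lowest library for both. The call of *TaAGL33-A* was lost without wild-type replicates 1, 2 or 3 or *phyC*-null replicates 1, 2 or 4 (log2 fold changes of 1.51 to 1.95) and that of *TaAGL33-B* without wild-type replicates 1 or 3 or *phyC*-null replicates 1 or 2 (2.36 to 3.04). *TaAGL41-B* rose from 51.03, 60.2, 62.4 and 47.2 to 162, 119, 109 and 135 in the same order of libraries (log2 fold change 1.24, SE 0.16, adjusted P = 0.0012).

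Transcripts that the study names as GATA zinc finger factors were almost absent from *phyC*-null. Contig67606 on chromosome 1B (1B:194528194-194530658) had 213, 207, 195 and 239 in wild-type replicates 1 to 4 and 2.87, 0, 1.38 and 4.46 in *phyC*-null replicates 1 to 4 (log2 fold change -6.68, SE 0.31, adjusted P = 2.07e-07). The contig td-k51_contig_84804 is placed both on 7B and on 7A. At the 7B locus the counts were 64.04, 61.9, 66.1 and 73.9 in the wild type and 0.958, 1.06, 0.691 and 1.49 in the mutant (log2 fold change -5.92, SE 0.28, adjusted P = 2.1e-07), while the 7A locus had at most 6.06 in a wild-type library and no read in any mutant library and did not pass the test (adjusted P = 0.11). Counts of such a pair rest on uniquely mapped reads, since the authors discarded reads without a unique position. Reads from stretches alike in both copies are therefore missing.

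One library set the upper end for most of these genes. Wild-type replicate 4 was the highest wild-type library at 9 of the 12 flowering loci that fell and the lowest at 3 of the 4 that rose. Without it, 15 of the 16 calls were still made, and over the 8 fits that left out 1 library the number was 13 to 15. In experiment 1, where 1273 of 77398 loci (1.64%) were called, all 16 were called in the same direction, which the choice of these loci on both experiments fixes.

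**Figure D2:**
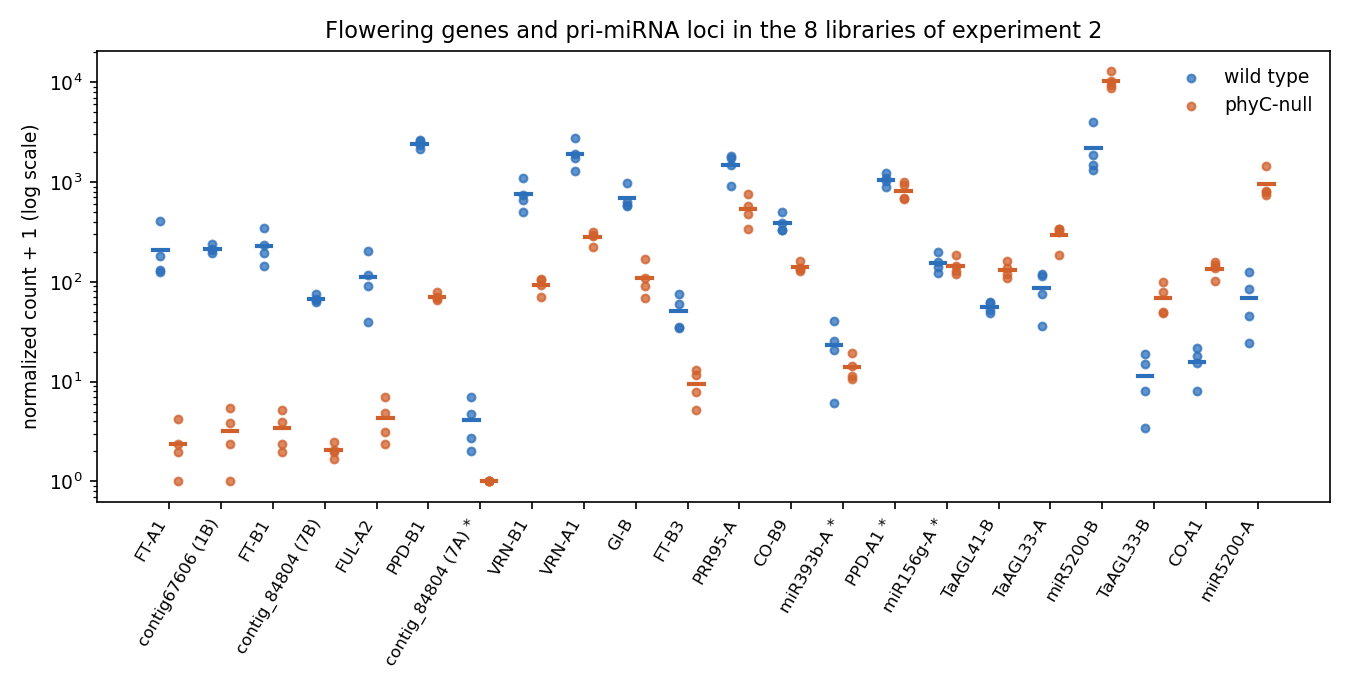
Normalized count plus 1 (log scale) of each wild-type and *phyC*-null library of experiment 2 at the tested flowering and pri-miRNA loci, ordered from the strongest fall to the strongest rise, with bars at the mean of the 4 libraries and an asterisk at loci that were not called. The 2 genotypes stand apart at *FT-A1*, *FT-B1*, *FUL-A2* and *PPD-B1* on the left and at both miR5200 loci on the right.

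The precursor transcripts (pri-miRNAs) of miR5200 rose strongly, while those of miR393b-A and miR156g-A did not pass the test. The study chose the miR5200 loci for their rise in *phyC*-null in these same libraries, and the other pri-miRNAs for a rise in *phyB*-null. The rise of the miR5200 loci is therefore not independent evidence. The miR5200-A locus (td-k35_contig_61886, on a 7AS scaffold) had 44.0, 83.1, 23.3 and 124 in wild-type replicates 1 to 4 and 736, 800.2, 805 and 1443 in *phyC*-null replicates 1 to 4 (log2 fold change 3.80, SE 0.39, adjusted P = 1.81e-04). Each mutant library exceeded the highest wild-type one several times over. The miR5200-B locus (td-k21_contig_55327, 7B:3426367-3430393) had 1485, 1869, 1333 and 4036 in wild-type replicates 1 to 4 and 12874, 9466, 10270.1 and 8788 in *phyC*-null replicates 1 to 4 (log2 fold change 2.25, SE 0.31, adjusted P = 0.00168), and was among the 5 most abundant called loci outside 1B. Without wild-type replicate 2 its call was lost (log2 fold changes of 2.07 to 2.73 in these fits). The same contig is also placed beside miR5200-A on the 7AS scaffold, where it had 5.003, 11.9, 1.86 and 21.8 in the wild type and 126, 128, 115 and 209.8 in *phyC*-null (log2 fold change 3.87). All 3 loci were without overlap.

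In *phyB*-null plants of experiment 2, compared with their own wild type, miR5200-A differed by -0.84 (adjusted P = 0.015) and miR5200-B by 0.57 (adjusted P = 0.0791) on the log2 scale. The *phyC*-null effect exceeded the *phyB*-null effect by 4.63 at miR5200-A (adjusted P = 1.3e-05), and by 1.67 at miR5200-B, where the difference did not pass the threshold (adjusted P = 0.021). The choice of both loci for a rise in *phyC*-null favours such differences. The miR530 loci could not be tested in the *PHYC* lines, since the 8 libraries held 2 reads at the A copy and 1 at the B copy. In *phyB*-null of the same experiment they had means of 7932 ± 662 and 3740.3 ± 279 normalized counts (SD, n = 4). The loci of miR393b-A (log2 fold change -0.75, SE 0.47, adjusted P = 0.499) and miR156g-A (log2 fold change -0.09, SE 0.18, adjusted P = 0.873), a family that targets SPL factors, overlapped between genotypes.

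A further comparison asked whether genes that the study lists as specific to *PHYB* moved in *phyC*-null in this experiment. The study selected them on these libraries for a change in *phyB*-null, so that change is no finding and their small number of calls in *phyC*-null is in part set by the choice. Of 67 listed loci, 60 could be tested in the *PHYC* lines, of which 2 rose, 4 fell and 54 did not pass. The median log2 fold change was -0.11 in *phyC*-null, beside 0.01 over all loci, and 2.02 in *phyB*-null. The *phyC*-null effect differed from the *phyB*-null effect at 39 of the 60, beside 1904 of 85617 loci (2.22%) in that contrast. Genes chosen for a change in *phyB*-null alone differ between the mutants by that choice, and nothing is read from the 39. Beside the 1.04% of all loci called in *phyC*-null, none of the 25 tested hormone genes and none of the 8 growth genes was called, and so few loci would seldom hold a call at that rate. Of the rest, 3 of 12 flowering-time genes fell, 1 of 10 transcription factors rose, and of 5 cold genes 1 rose and 1 fell. The number of calls among the 60 dropped from 6 to 3 without wild-type replicate 1 or 3 and to 2 without wild-type replicate 2 or *phyC*-null replicate 1.

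*FPF-like-B2*, of the flowering promoting factor family, went the other way from *phyB*-null. It had 164, 170.5, 105 and 188 in wild-type replicates 1 to 4 and 54.6, 45.6, 53.9 and 31.2 in *phyC*-null replicates 1 to 4 (log2 fold change -1.73, SE 0.21, adjusted P = 6.81e-04), without overlap, and in *phyB*-null it rose by 3.69 on the log2 scale, a difference of -5.42 between the mutants (adjusted P = 6.24e-09). The choice of *FPF-like-B2* for a change in *phyB*-null alone favours a difference between the mutants. In *phyC*-null of experiment 1 its log2 fold change was 0.14 (adjusted P = 0.789). Its relative *FPF-like-A1* had a log2 fold change of 0.92 in *phyC*-null (adjusted P = 0.121) and 6.69 in *phyB*-null.

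The *VIN3*-like genes, which encode PHD finger proteins of the vernalization and photoperiod pathways, fell together. *VIL-A2* had 749, 814, 653 and 709 in wild-type replicates 1 to 4 and 342, 437, 287 and 430.0 in *phyC*-null replicates 1 to 4 (log2 fold change -0.97, SE 0.14, adjusted P = 0.0025), and *VIL-B2* had 562, 529, 418 and 451 in wild-type replicates 1 to 4 and 245, 322, 196 and 276.8 in *phyC*-null replicates 1 to 4 (log2 fold change -0.92, SE 0.15, adjusted P = 0.00675). Both fell by nearly 1 log2 unit without overlap. The call of *VIL-A2* was lost without wild-type replicate 2 or *phyC*-null replicate 1 (log2 fold changes of -1.06 to -0.86) and that of *VIL-B2* without wild-type replicates 1, 2, 3 or 4 or *phyC*-null replicates 1, 3 or 4 (-1.04 to -0.80).

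*SPL14-like-B*, a squamosa promoter-binding factor, rose from 24.01, 32.2, 26.1 and 13.3 to 110.1, 66.9, 153 and 62.5 (log2 fold change 2.03, SE 0.32, adjusted P = 0.00444). The cold-regulated gene *WCOR15-A* rose more, with 9.01, 49.2, 27.0 and 52.1 in wild-type replicates 1 to 4 and 359, 505, 418 and 336 in *phyC*-null replicates 1 to 4 (log2 fold change 3.56, SE 0.34, adjusted P = 8.15e-05). In *phyB*-null *WCOR15-A* rose by 7.42, a larger change by the test of the difference (-3.86, adjusted P = 1.14e-04). Its choice for a change in *phyB*-null favours that difference. *ICE-B41*, related to the cold regulator ICE1, fell (log2 fold change -1.56, SE 0.26, adjusted P = 0.00658). The calls of *SPL14-like-B* and *ICE-B41* were lost without wild-type replicates 1, 2, 3 or 4 or *phyC*-null replicate 1 (log2 fold changes of 1.72 to 2.21) and without wild-type replicates 1, 2 or 3 or *phyC*-null replicates 1, 2, 3 or 4 (-1.72 to -1.36).

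Other genes of this group did not pass the test in *phyC*-null. *PIF-B3*, of the phytochrome-interacting factor family, had a log2 fold change of 0.26 (SE 0.33) beside 6.63 in *phyB*-null, and *GA20ox-B2*, a gibberellin biosynthesis gene, -0.87 (SE 0.33) beside 6.94. *TZP-B*, a zinc knuckle protein linked to light signalling and growth in Arabidopsis, had 4711 ± 151 in the wild type and 4109.6 ± 620.4 in *phyC*-null (SD, n = 4) and a log2 fold change of -0.20 (SE 0.12) beside -1.54. The *phyC*-null and *phyB*-null effects differed at each of these 3 genes (adjusted P = 2.96e-08, 8.88e-12 and 1.52e-05). Their choice for a change in *phyB*-null alone favours such differences, so nothing is read from them. The auxin biosynthesis gene *TAR-B2* (-0.78, adjusted P = 0.0254) and the auxin response factor *ARF-B17* (-0.56, adjusted P = 0.0294) lay short of the threshold.

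**Figure D3:**
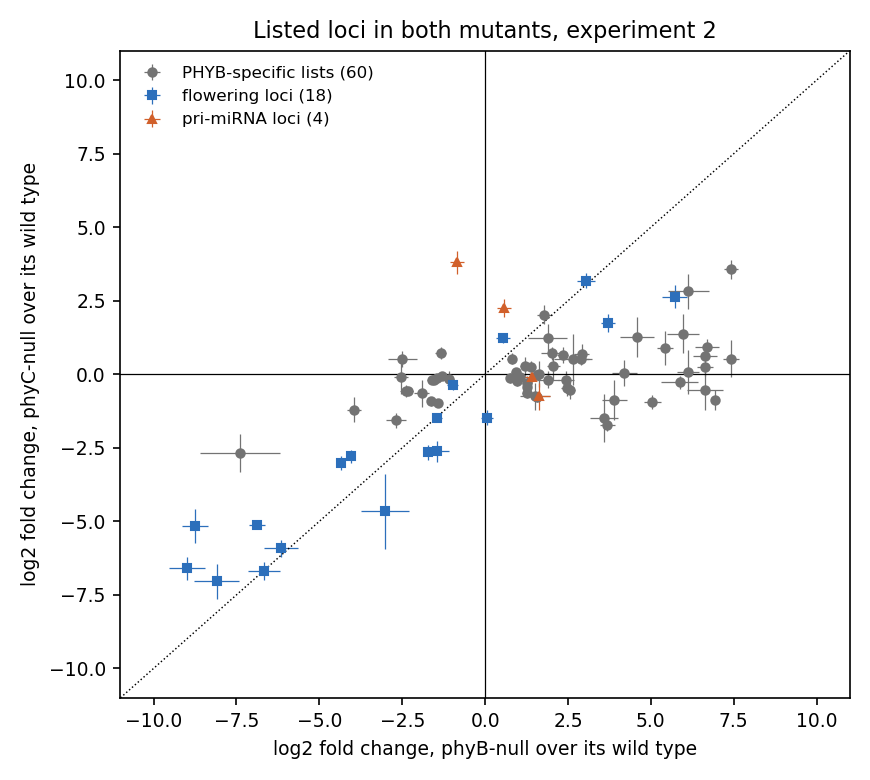
Log2 fold change in *phyC*-null against that in *phyB*-null, each over its own wild type in experiment 2, for the listed loci, with standard errors as bars and the line of equal effects dotted. Most of the 60 *PHYB*-specific loci lie along the horizontal line at 0, the flowering loci mostly near the dotted line, and miR5200-A and miR5200-B above 0 on the vertical axis.

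Descriptions came from the study's lists of *PHYB*-regulated genes, which held 2081 of the loci, and 2017 of them were tested here. Of these, 19 rose and 44 fell in *phyC*-null, and a description was at hand for 15 of the rises and 43 of the falls. The lists were chosen for a change in *phyB*-null, so changes of these loci in *phyB*-null are no finding. They cannot stand for the other called loci. Of 17 loci described as disease resistance protein RGA4, a receptor class that detects pathogens, 5 fell and none rose, with a median log2 fold change of -0.73 over the 17. The first 10 Mb of chromosome 2A held 35 called among 403 tested loci, 20 rises and 15 falls. Whether that segment differs between the sister lines was not tested. Among the RGA4 loci that fell, td-k45_contig_50232_td-k55_contig_14458 (log2 fold change -1.23), td-k51_contig_33506 (-1.69) and a neighbour lie within it, near the start of the chromosome. This neighbour, td-k45_contig_22039_td-k21_contig_19641 (2A:878189-884379), had 190.1, 174, 209.5 and 172 in wild-type replicates 1 to 4 and 76.6, 80.7, 77.3 and 78.9 in *phyC*-null replicates 1 to 4 (log2 fold change -1.25, SE 0.12, adjusted P = 7.61e-05), with very close values within each genotype. In *phyB*-null the same locus rose by 1.87 (adjusted P = 3.74e-05). Opposite signs were also seen at td-k45_contig_50232_td-k55_contig_14458 (2.001), td-k51_contig_33506 (1.68) and, on 2B, td-k31_contig_11111 (-1.38 in *phyC*-null and 1.38 in *phyB*-null). These loci were listed for a change in *phyB*-null and picked here for a fall in *phyC*-null, so nothing is read from the opposite signs. Of all 53 tested loci described as disease resistance proteins, 6 fell and 1 rose, the RPM1 locus Traes_7AS_5D463EC96 (log2 fold change 1.83, SE 0.30, adjusted P = 0.00564). This call was lost without wild-type replicates 1, 2, 3 or 4 or *phyC*-null replicate 1 (log2 fold changes of 1.48 to 2.003), and that of td-k51_contig_33506 without *phyC*-null replicate 2 (-1.84 to -1.55).

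Further described loci, named after their values were seen, included transporters. The aquaporin PIP2-4 locus Traes_6AL_23B31796F, a water channel, had 1648, 2140.0, 1601.7 and 2006 in wild-type replicates 1 to 4 and 609, 970.0, 660.2 and 680.0 in *phyC*-null replicates 1 to 4 (log2 fold change -1.34, SE 0.16, adjusted P = 4.73e-04), and was the 1 called of 12 loci described as aquaporins (median log2 fold change -0.52). Of 4 boron transporter loci 2 fell, Traes_3AS_48FDCD285 (log2 fold change -0.85, SE 0.13, adjusted P = 0.00453) and Traes_3AS_F41DD5A61 (log2 fold change -0.92, SE 0.15, adjusted P = 0.00682). Their log2 fold changes in *phyB*-null were -3.74 and -4.51, and the mutants differed at both (adjusted P = 9.71e-07 and 3.04e-06). Their place on the lists of *PHYB*-regulated genes favours such differences. A partner of high-affinity nitrate transporters, Traes_6AL_F79924E7E, fell by 2.97 on the log2 scale (adjusted P = 0.00254). The calls were lost without wild-type replicates 1, 2, 3 or 4 or *phyC*-null replicates 1, 2 or 4 for Traes_3AS_48FDCD285 (log2 fold changes of -0.98 to -0.77), without wild-type replicates 1, 2 or 4 or *phyC*-null replicates 1, 2 or 4 for Traes_3AS_F41DD5A61 (-1.09 to -0.84), and without *phyC*-null replicates 1, 2 or 3 for the nitrate transporter partner (-3.23 to -2.44).

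Both salicylate O-methyltransferase loci, one on 7A and the other on 7B, fell, by 1.18 (td-k41_contig_82066, adjusted P = 0.00582) and 1.49 (Traes_7BS_ADBDF64EC, adjusted P = 0.00668) on the log2 scale. Both were near the threshold, with the calls lost without wild-type replicates 2 or 3 or *phyC*-null replicates 1, 2, 3 or 4 for the 7A locus (log2 fold changes of -1.27 to -0.98) and without wild-type replicates 2 or 4 or *phyC*-null replicates 1, 2, 3 or 4 for the 7B locus (-1.63 to -1.23). A pair of loci described as protein phosphatase 2C, a family with negative regulators of abscisic acid signalling, rose in the mutant. They were picked after their values were seen, and other loci with this description were not counted. Traes_2AL_E1B2BB4DC had 1.001, 1.70, 5.59 and 4.85 in wild-type replicates 1 to 4 and 108, 76.4, 55.9 and 44.6 in *phyC*-null replicates 1 to 4 (log2 fold change 4.44, SE 0.42, adjusted P = 8.73e-05), and Traes_2BL_F14413C65 rose by 2.83 (adjusted P = 3.84e-04). The groups did not overlap at either locus. A dihydroflavonol reductase locus, Traes_5AL_0807B656A, of flavonoid synthesis, had 891, 1003, 961 and 959 in wild-type replicates 1 to 4 and 516, 471, 385.3 and 475 in *phyC*-null replicates 1 to 4 and fell (log2 fold change -1.05, SE 0.11, adjusted P = 1.63e-04).

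None of 39 described chloroplast ribosomal protein loci was called (median log2 fold change 0.14). The 14 loci found by photosystem, chlorophyll or Rubisco terms, among them CL8990Contig1 with a xyloglucan endotransglucosylase as its best match, had a median of 0.66. Of these 1 rose, Traes_2AL_E0AC9DBC7, described as a protochlorophyllide reductase, an enzyme of chlorophyll synthesis. It had 2.001, 1.70, 6.52 and 4.85 in wild-type replicates 1 to 4 and 55.5, 62.6, 40.7 and 13.4 in *phyC*-null replicates 1 to 4 (log2 fold change 3.53, SE 0.50, adjusted P = 0.00232). The call was lost without wild-type replicate 2 (log2 fold changes of 3.26 to 3.97), and in experiment 1 the log2 fold change was -1.71 (adjusted P = 0.185). None of the 24 cytochrome P450, 12 peroxidase, 11 heat shock and 7 terpene synthase loci tested was called. Among all 2017 described loci tested, 19 rose and 44 fell, and 1.04% of all loci were called. Sets of these sizes can hold no call at such rates. Nothing is therefore read from these zeros or from that of the 39 chloroplast ribosomal protein loci. Receptor-like kinases gave 2 rises (Traes_5BL_DFFA40472 by 0.91 and Traes_2BS_5C64FC44A by 1.10) and 2 falls (td-k31_contig_27760 by 3.01 and td-k63_contig_76467 by 0.76) among 138. The NAC factor Traes_2AL_C0670BBDD (-1.06) and a retrotransposon-like locus, Traes_3AS_64F13ED6A (-0.65), fell as well. The calls of Traes_5BL_DFFA40472 (log2 fold changes of 0.84 to 0.99) and Traes_3AS_64F13ED6A (-0.70 to -0.57) were lost whichever of the 8 libraries was left out. Those of Traes_2BS_5C64FC44A (0.999 to 1.18) were lost without wild-type replicates 1, 2, 3 or 4 or *phyC*-null replicates 1, 3 or 4, of td-k63_contig_76467 (-0.81 to -0.67) without wild-type replicates 1, 2, 3 or 4 or *phyC*-null replicate 2, of td-k31_contig_27760 (-3.25 to -2.64) without wild-type replicate 3 or *phyC*-null replicates 1, 2 or 3, and of Traes_2AL_C0670BBDD (-1.16 to -0.92) without wild-type replicates 1, 2 or 4 or *phyC*-null replicates 1, 2 or 3. The 2 loci described as phytochromes, Traes_4AS_1F3163292 (partial, log2 fold change -0.12, adjusted P = 0.673) and Traes_4AL_F46203719 (phytochrome A, -0.18, adjusted P = 0.762), were not called.

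The widest changes outside 1B were at loci with no description. The 10 largest rises among well-separated loci with a mean of at least 50 normalized counts spanned log2 fold changes of 6.06 to 8.66 and the 10 largest falls -7.03 to -8.56. The strongest rise was at td-k41_contig_26147 (7A:15611505-15612266), with no read in any wild-type library and 34.5, 56.2, 35.2 and 75.9 in the mutant ones, at least 63.2-fold higher when 3 reads are allowed over the wild-type libraries. In *phyB*-null of experiment 2 this locus fell, by 6.83 on the log2 scale. Isotig06133 (6A:22817909-22819364) followed, with 0, 0, 1.86 and 1.21 in wild-type replicates 1 to 4 and 125, 215, 159 and 211 in *phyC*-null replicates 1 to 4 (log2 fold change 7.69, SE 0.42, adjusted P = 5.64e-07), and in experiment 1 its log2 fold change was 1.02 (adjusted P = 0.557).

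Of the 10 loci with the largest rises, 5 were called with the same direction in experiment 1, and of the 10 largest falls 9. Of all called loci outside 1B, 39.7% were. Isotig15495 (7B:3557733-3558400) fell most, from 191, 258, 149.9 and 321 in the wild-type libraries to 0, 1.06, 0.691 and 0 in the mutant ones (log2 fold change -8.56, SE 0.45, adjusted P = 4.29e-07). KukriC3550_11 (2A:10679593-10680266) came next, with 87.1, 103, 96.8 and 124 in wild-type replicates 1 to 4 and 0, 0, 0 and 1.49 in *phyC*-null replicates 1 to 4 (log2 fold change -8.12, SE 0.43, adjusted P = 4.29e-07). *FT-A1* was the tenth of the falls. Of these 10, 3 were called in the opposite direction in *phyB*-null, where 9545 of 82640 loci (11.6%) were called, among them Traes_2AS_7E47A2541, which fell by 7.91 in *phyC*-null and rose by 8.28 in *phyB*-null.

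The most abundant called loci changed less. A pair of loci that share the description dentin sialophospho, Traes_4AL_D4FBD91AF and Traes_4BS_3DEDDA9B8, fell by 0.70 and 0.72 on the log2 scale. The 4A locus had 11431, 11229.5, 11752 and 10494 in wild-type replicates 1 to 4 and 6886, 7527, 5844 and 7442 in *phyC*-null replicates 1 to 4 (adjusted P = 0.00588), without overlap. These calls were lost without wild-type replicates 1, 2, 3 or 4 or *phyC*-null replicates 1 or 2 for the 4A locus (log2 fold changes of -0.74 to -0.63) and without wild-type replicates 1, 2, 3 or 4 or *phyC*-null replicates 1 or 2 for the 4B locus (-0.76 to -0.64). Traes_1AL_A785A010E (1A:46279812-46281465) rose from 2484, 1353, 5379 and 2058 to 16066, 12126, 15840.2 and 13885 (log2 fold change 2.36, SE 0.34, adjusted P = 0.0024) and lost its call without wild-type replicates 1 or 4 (2.13 to 2.88). Contig06666, on a 7BL scaffold, fell (log2 fold change -0.95, SE 0.13, adjusted P = 0.00183).

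Called loci were unevenly placed. The share called ran from 0.484% on 7B to 2.16% on 1B, with 1A (1.78%) and 2A (1.38%) next. A 10-Mb window held 1 called locus at the median over 397 windows, and 35 of 403 tested loci (8.68%) in the first 10 Mb of 2A, 20 rises and 15 falls. In experiment 1, 33 of these 35 had the same sign and 22 were called, beside 93.6% and 39.7% of the called loci outside 1B. Within it, Traes_2AS_A0A7891B9 (2A:7411639-7415215) had 9155, 9519, 9420.4 and 9330.3 in wild-type replicates 1 to 4 and 1252, 1251, 1097 and 1305 in *phyC*-null replicates 1 to 4 (log2 fold change -2.93, SE 0.10, adjusted P = 2.29e-08), values that barely varied within a genotype. The window of 1A from 230 to 240 Mb held 21 called among 325 (6.46%), 13 rises and 8 falls. Of these, 20 had the same sign and 4 were called in experiment 1, beside the same shares outside 1B. Both windows were singled out for their counts, and whether they mark segments that differ between the sister lines was not tested.

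**Figure D4:**
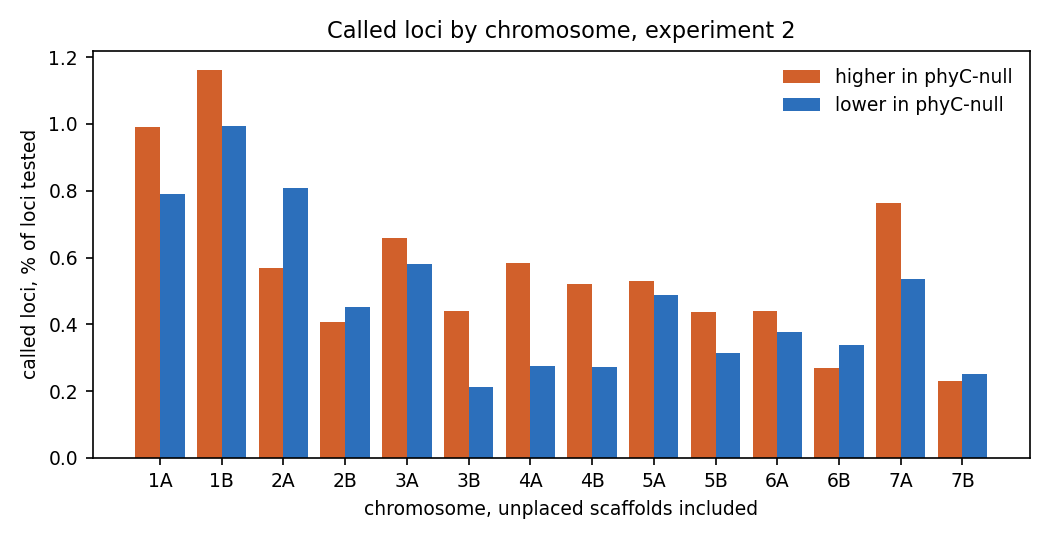
Loci called higher and lower in *phyC*-null in experiment 2 as a percentage of the loci tested on each chromosome, unplaced scaffolds included. Chromosome 1B has the highest bars in both directions and 7B the lowest total.

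On chromosome 1B and its scaffolds, 104 of 4822 loci (2.16%) were called, 56 higher and 48 lower in *phyC*-null. Their median absolute log2 change was 2.63, beside 2.09 for the called loci elsewhere, and in 36 of them (34.6%) 1 genotype was near silence, beside 127 of 677 (18.8%). With stretches drawn after the positions were seen, 1 of 1295 loci was called in the first 110 Mb, 60 of 1181 (5.08%) from 110 to 220 Mb and 17 of 1227 (1.39%) beyond. The scaffolds of the long arm gave 24 calls among 692 (3.47%) and those of the short arm 2 among 427.

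The strongest rise on 1B was at td-k41_contig_25101 (1B:138989551-138991276), with 2.001, 0.848, 2.79 and 0 in wild-type replicates 1 to 4 and 341, 285.5, 293 and 348 in *phyC*-null replicates 1 to 4 (log2 fold change 7.64, SE 0.28, adjusted P = 2.29e-08). The contig td-k31_contig_38235, on a 1BL scaffold, had 4.002, 2.54, 5.59 and 3.63 in wild-type replicates 1 to 4 and 651, 708, 510.3 and 709.8 in *phyC*-null replicates 1 to 4 (log2 fold change 7.31, SE 0.21, adjusted P = 5.93e-09). In each case the wild type was near silence and the mutant libraries were close to each other. All 5 of the largest rises were called in experiment 1, as were 71.2% of the called loci on 1B in the same direction. None of the 5 was called in *phyB*-null of experiment 2, where 11.6% of all loci were called. So few loci would often hold no call at that rate.

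Among the falls on 1B, td-k21_contig_49894 (1B:149068916-149069522) had 80.05, 99.2, 95.0 and 90.9 in wild-type replicates 1 to 4 and 0, 0, 2.07 and 0 in *phyC*-null replicates 1 to 4 (log2 fold change -6.76, SE 0.42, adjusted P = 1.91e-06), and td-k63_contig_81171 (1B:198367824-198370278) 205, 137, 152 and 153 in wild-type replicates 1 to 4 and 1.92, 2.12, 2.07 and 2.98 in *phyC*-null replicates 1 to 4 (log2 fold change -6.12, SE 0.25, adjusted P = 6.52e-08). Both were also lower in *phyB*-null, by 9.59 and 6.05 on the log2 scale, as was contig67606 of the flowering list. At Traes_1BL_B1C10EA93 (1B:253840627-253848878) the counts were 18.0, 2429, 2659.6 and 2745 in wild-type replicates 1 to 4 and 10.54, 8.49, 9.67 and 17.9 in *phyC*-null replicates 1 to 4, so that wild-type replicate 1 stood at the level of the mutant. This locus was called (log2 fold change -7.45, SE 1.14, adjusted P = 0.00377), but not without wild-type replicates 2 or 3 or *phyC*-null replicates 1, 2, 3 or 4 (log2 fold changes of -7.86 to -7.25). Contig80667 on a 1BL scaffold fell by 4.92 (adjusted P = 8.58e-08) and had a log2 fold change of -0.12 in *phyB*-null.

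The loci called in experiment 2 were then looked up in experiment 1, a separate growth of both lines. Of the 778 called loci that could be tested there, 733 (94.2%) had the same sign, beside 61.6% of all 72601 loci tested in both, and 343 were called in the same direction, 178 rises and 165 falls. The loci that rose had a median log2 fold change of 2.39 in experiment 2 and 1.53 in experiment 1, and those that fell -1.69 and -1.38. On chromosome 1B, 74 of the 104 (71.2%) were called in both, and outside it 269 of the 677 (39.7%). Being chosen in experiment 2 favours larger values there, and these shares do not measure a difference between the experiments.

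The test of that difference called few loci. It singled out 14 of 81574 loci (0.0172%) whose genotype effect depended on the experiment, of which 5 were among those called in experiment 2 and none was a flowering locus (lowest adjusted P 0.178 over the flowering list). A DESeq2 test of the same contrast called 158, and 8419 loci had an unadjusted P under 0.05. Leaving 1 replicate number out of all 4 groups gave 8 loci without number 2 and 4 without number 3 or 4. A single locus, isotig28124 (2A:14977490-14979143), was called in both experiments with opposite signs, rising from 16.01, 25.4, 25.1 and 8.48 to 77.6, 53.1, 89.1 and 61.01 in experiment 2 (log2 fold change 1.87) and falling by 3.005 in experiment 1. Its call in experiment 2 was lost without wild-type replicate 1 or *phyC*-null replicates 1 or 3 (log2 fold changes of 1.66 to 2.06).

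Of the other 4 loci, 3 lie on chromosome 3A. Contig79538, on a 3AS scaffold, had 5.003, 3.39, 5.59 and 0 in wild-type replicates 1 to 4 and 62.3, 66.9, 64.9 and 83.3 in *phyC*-null replicates 1 to 4, and a log2 fold change of -0.20 in experiment 1, where the wild type had 80.3 normalized counts on average. Traes_3AS_CFDB631D5, described as a ribonuclease, fell from 169, 171, 142 and 168 to 20.1, 18.0, 22.8 and 22.3, and had a log2 fold change of 0.06 in experiment 1 with a wild-type mean of 18.5. Traes_3AS_2041E9D3E, described as a UDP-sugar pyrophosphorylase, rose by 4.31 beside 0.23. At these 3 loci the wild-type plants of experiment 2 stood at a different level from those of experiment 1, while the mutant means were close (69.3 and 70.0 for contig79538). The fifth, Traes_5BL_42BEB52D1 (5B:231001742-231009100), rose in both, by 2.17 and 5.84.

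**Figure D5:**
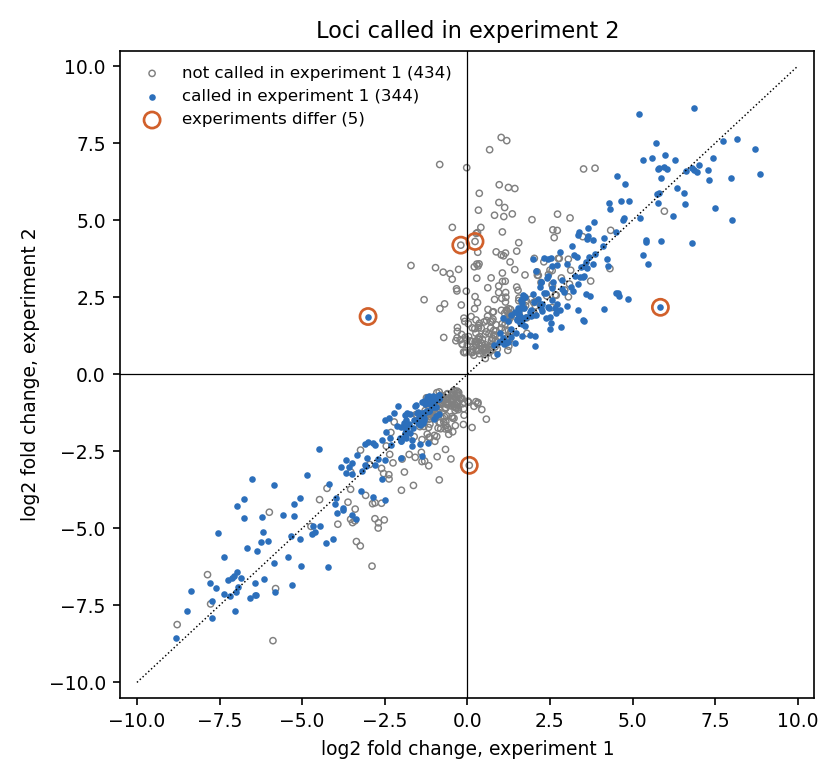
Log2 fold change in experiment 2 against that in experiment 1 for the 778 loci called in experiment 2 and tested in both, with the line of equal effects dotted. The 343 loci called in the same direction in experiment 1 (filled, with the 1 called oppositely) lie mostly along the line, the others (open) scatter toward 0 in experiment 1, and the 5 ringed loci passed the interaction test.

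Against *phyB*-null in the same experiment, 752 of the 781 loci could be compared. Of these, beside 11.6% of all loci, 248 were called in *phyB*-null with the same direction and 59 with the opposite one, 31 of them lower in *phyC*-null and higher in *phyB*-null, and 28 the reverse. The effects of both mutants differed by the test of the difference at 288 of the 781, beside 2.22% of all loci in that contrast, and loci chosen for a change in *phyC*-null are more likely to pass it. With 1 replicate number left out of all 4 groups that contrast called 635 loci in all without number 1, 842 without 2, 851 without 3 and 838 without 4, beside the 1904. Each mutant had its own wild-type sister line, so no control is shared.

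Within the flowering list, the falls of *PPD-B1*, *VRN-A1* and *VRN-B1* were smaller in *phyC*-null than in *phyB*-null, by 1.76 (adjusted P = 1.23e-04), 1.23 (adjusted P = 0.00442) and 1.304 (adjusted P = 0.00608) on the log2 scale. The rises of *TaAGL33-A* and *TaAGL33-B* were smaller too (-1.96 and -3.07, adjusted P = 0.00901 and 0.00993). The levels of these genes come from separately normalized comparisons (SD, n = 4 for each mean), and no test was made between them. *VRN-A1* had 6248 ± 446 normalized counts in the wild-type sister line of *phyB*-null and 383 ± 23.4 in that mutant, beside 1928 ± 609.8 in the wild type and 278 ± 39.2 in *phyC*-null. *VRN-B1* had 1859 ± 115 normalized counts in the wild-type sister line of *phyB*-null and 92.0 ± 8.27 in that mutant, beside 750.2 ± 254 in the wild type and 92.3 ± 16.5 in *phyC*-null. At both genes the mutant means were nearer to each other than the wild-type means were. *PPD-B1* had 4146 ± 866 normalized counts in the wild-type sister line of *phyB*-null and 35.3 ± 8.37 in that mutant, beside 2415 ± 225 in the wild type and 70.0 ± 5.25 in *phyC*-null. *TaAGL33-A* had 23.8 ± 7.29 normalized counts in the wild-type sister line of *phyB*-null and 315 ± 50.99 in that mutant, beside 85.6 ± 38.9 in the wild type and 294 ± 73.9 in *phyC*-null, so that here too the wild types lay further apart than the mutants in proportion.

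*PRR95-A* fell in *phyC*-null and had a log2 fold change of 0.06 in *phyB*-null, a difference of -1.54 (adjusted P = 0.00886). The study chose *PRR95-A* for a change in *phyC*-null alone, which favours that difference. For *FT-A1* (difference 1.02, SE 1.71), *FT-B1* (2.34, SE 1.16) and *GI-B* (-0.95, SE 0.30) the mutants could not be told apart, with adjusted P = 0.809, 0.278 and 0.0738.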

How the data were processed

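Total RNA was extracted from the 8 leaf samples, and non-stranded libraries made from it with a TruSeq RNA kit were sequenced. Reads of a gene and of an overlapping antisense transcript therefore cannot be told apart. According to the methods and the submitters' processing notes, the authors aligned the reads with GSNAP to a draft assembly of the A and B genomes and counted them per transcribed locus with HTSeq, and the deposited values are raw read counts. According to the methods, reads without a unique mapping position were discarded at the counting step. A locus was tested where 2 or more libraries of the comparison held 3 or more reads of it.

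Counts were scaled with median-of-ratios (RLE) size factors and tested with edgeR 4.0.16 (limma 3.58.1, data.table version 1.17.8, R 4.3.3) by the quasi-likelihood F test, with Benjamini-Hochberg adjustment over all loci tested and a threshold of 0.01. Every adjusted P printed for a locus is from this test. Differences between experiments and between mutants were tested as contrasts of 4 group means. Genotypes are said not to overlap when all 4 libraries of one lie above all 4 of the other. DESeq2 1.42.0 served as an alternative, beside other scalings, filters, a replicate block and fits without 1 library. On simulated counts at the levels of these libraries the test recovered 99 of 100 loci changed 4-fold and 60 of 100 changed 2-fold, with 1 false call among 72603 loci. There every locus had the same dispersion, and the changed loci had a mean of at least 20 normalized counts. These rates therefore do not hold for lower loci, nor for real loci whose dispersions differ. Figures were drawn with matplotlib 3.10.9.

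The text gives the members of the flowering and pri-miRNA lists, examples from the 10 largest rises and falls outside 1B and the 5 of each on 1B (no overlap and a mean of at least 50 normalized counts in the higher genotype), the 5 most abundant called loci, and up to 4 called loci per keyword. Other loci were named after their values were seen. The members and lists were chosen with earlier results of these data known, and gene names and descriptions are those of the study's lists of regulated genes, which are not complete. Positions are in the coordinates the authors deposited. Intervals and P values cover the spread between these libraries.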

Additional observations from a re-analysis of the deposited data

Results flagged for a closer look

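Of 120 groups of 4 libraries examined at the named loci, 9 held a library far from the other 3 relative to the range of the group, where chance gives about 1 in 20. *GI-B* had 978 normalized counts in wild-type replicate 4, beside 580.2 to 635 in the others. *TaAGL33-A* had 184 in *phyC*-null replicate 3, beside 314 to 339. The miR5200-A locus had 1443 in *phyC*-null replicate 4, beside 736 to 805. Traes_1BL_B1C10EA93 had 18.0 in wild-type replicate 1, beside 2429 to 2745 in the other wild-type libraries.

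In the remaining 5, 1 library of the genotype held 1 to 3 reads and the others none, and a lone value among zeros always stands apart by this measure. The value rested on 1 read at KukriC3550_11, td-k55_contig_76148 and td-k61_contig_53121 and on 3 reads at the other loci. The libraries were td-k25_contig_15979 in wild-type replicate 1 (3.002 normalized counts), KukriC3550_11 and td-k55_contig_76148 in *phyC*-null replicate 4 (1.49 each), td-k61_contig_53121 in *phyC*-null replicate 3 (0.691) and td-k21_contig_49894 in *phyC*-null replicate 3 (2.07).

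The effect of *phyC*-null differed between experiments, by the interaction test, at 5 loci called in experiment 2. The log2 fold change in experiment 2 exceeded that in experiment 1 by 4.39 at contig79538, by 4.88 at isotig28124 and by 4.09 at Traes_3AS_2041E9D3E, and the difference was -3.02 at Traes_3AS_CFDB631D5 and -3.67 at Traes_5BL_42BEB52D1. No explanation of these values was tested.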

How the results depend on the processing

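The number of called loci, 781 in all, 677 outside 1B and 104 on it, moved by over 1.5 times under some settings. Without a filter on low counts it was 1600, 1417 and 183. With the DESeq2 Wald test it was 1467, 1294 and 173, with edgeR's exact test 1776, 1572 and 204, and with both of these required 1410, 1242 and 168. At an adjusted P of at most 0.05 it was 1723, 1530 and 193. Over the 8 fits that left out 1 library it ran from 483 to 668 in all, from 413 to 581 outside 1B and from 70 to 87 on it. Calls among the *PHYB*-specific loci, 6 of 60, were 2 to 5 in those fits and 10 with the exact test, and flowering calls 13 to 15. The interaction of genotype and experiment, 14 loci, gave 158 with DESeq2 and 4 to 13 without 1 replicate number. The difference between mutants, 1904 loci, gave 3723 with DESeq2 and 635 to 851. TMM scaling (776), filterByExpr (693), thinning to the smallest library (686), a fit of 16 libraries (718) and a 2-fold minimum (654) moved the total less.

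Same-numbered replicates of the 2 genotypes were not paired: the correlations of their deviations were 0.0801, -0.0701, -0.144 and 0.121. With the replicate number as a block, 672 loci were called, 583 of them among the 781. There were 3 sign changes, at loci far from the threshold. Over the fits without 1 library, the log2 fold change of *CCA-B1* (-0.05 with all) ran from -0.13 to 0.038, with 0.005 without wild-type replicate 2, and that of miR156g-A (-0.09 with all) from -0.24 to 0.042. Why the counts moved was not tested. Depth limits the lowest loci: where the higher genotype had at most 10 normalized counts, the 17 called loci had a median absolute log2 change of 4.61, and most smaller differences there were not detectable at this depth.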

Other observations

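Loci described as photosystem II 10 kDa polypeptides, a subunit near the oxygen-evolving complex, varied widely between libraries of a genotype. The locus on 6A had 88.1, 5.09, 16.8 and 7.27 in wild-type replicates 1 to 4 and 1984, 58.4, 229 and 14.9 in *phyC*-null replicates 1 to 4, and that on 6B had 667, 39.9, 95.0 and 53.3 in wild-type replicates 1 to 4 and 2709.5, 125, 347 and 22.3 in *phyC*-null replicates 1 to 4. Replicate 1 was the highest library of both genotypes at both loci. Neither was called.

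Besides the 5 loci named above, 9 loci passed the interaction test without a call in experiment 2, and 5 of them are on 1B. They include KukriC5014_2, with a log2 fold change of 5.92 in experiment 1 and -0.75 in experiment 2, Traes_1BL_65D58F997 (5.78 and 0.15), Traes_1BS_C012FD5DC (3.97 and 0.10) and Traes_3AS_E61C3A374, described as an endonuclease (-2.99 and 0.07). In experiment 2 the mean of KukriC5014_2 was 2.83 ± 2.12 normalized counts in the wild type and 1.57 ± 0.82902 in *phyC*-null (SD, n = 4), and in experiment 1 it was 2.94 ± 1.45 and 185 ± 38.1.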
